A study of Homo sapiens with 6 samples.

Results

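Messenger RNA of the subunits and assembly factors of respiratory complex I was examined in NOMO-1 cells, an established line of acute myeloid leukaemia, in which the RNA methyltransferase METTL16 had been targeted with a guide RNA. Members were the rows of the expression table whose symbol began with NDUFA, NDUFB, NDUFC, NDUFS, NDUFV, NDUFAB or NDUFAF followed by a digit, which gave 50 of 15059 rows. They comprised 7 core subunits, 30 accessory subunits, 7 assembly factors (NDUFAF1 to NDUFAF7), the pair NDUFA4 and NDUFA4L2, and 4 other transcripts, namely the antisense RNAs NDUFB2-AS1 and NDUFV2-AS1, the readthrough NDUFC2-KCTD14 and the pseudogene NDUFAF4P1. Of the 50, 49 passed the filter on low values and were tested. The exception, NDUFAF4P1, lay between 0.286 and 0.544 in the 6 libraries.

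There were 3 groups of 2 libraries. Control cells carried an empty vector and the non-targeting guide (sgNS+EV), and knockout cells carried the empty vector and the guide against METTL16. Rescue cells overexpressed METTL16 before the endogenous gene was targeted. All of them were transduced with lentivirus and kept under puromycin for 1 to 2 weeks, so each group is a selected population, and rescue cells were made in parallel and are not a later time point of the knockout. Nothing in the labels says that the 2 libraries of a group came from separate cultures, and p-values then measure only the spread between these libraries, which may be technical.

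Complex I takes electrons from NADH, passes them along a chain of iron-sulfur clusters to ubiquinone, and pumps protons across the inner mitochondrial membrane. Core subunits carry the redox centres and the proton channels. Those of the peripheral arm are encoded in the nucleus and those of the membrane arm by mitochondrial DNA. Accessory subunits surround the core and stabilise it, and assembly factors help to build the modules and are absent from the finished enzyme. Of the 7 complex I genes of mitochondrial DNA (MT-ND1 to MT-ND6 and MT-ND4L), 0 had a row in the table, so the membrane core was not analysed here.

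Each value is an abundance from RSEM, called the signal, which corrects for transcript length; it is relative to the other RNAs of the library, and whether it is TPM or FPKM is not given in the sources used here. In bulk RNA, fewer cells of a type and less RNA per cell cannot be told apart. The signal summed to between 597160 and 681928 per library. From the spacing of low values of short transcripts, a signal of 1 was estimated at roughly 22.5 to 24.9 reads over 1000 nt. The spacing was chosen in each library to put the most values near whole reads, and 71.6% to 79.3% then lay within 0.15. With a spacing fixed beforehand 30% would by chance. The chance share for a chosen spacing was not computed, so these percentages do not test the estimate. METTL16 was at 9.89 and 9.63 in control, 6.05 and 5.83 in knockout and 12.3 and 12.1 in rescue (log2 change of -0.63, limma adjusted p = 4.76e-05, knockout minus control). Relative to each gene's mean, control replicate 2 had a median deviation of -0.10 log2 over all genes, and the other libraries lay between 0.0024 and 0.040. Over all genes tested, 26.2% rose in knockout against control. Of 10 myeloid markers, 9 were in the table (MPO was not), and all 9 rose in knockout. They summed to 305 to 325 in control, 495 and 495 in knockout and 371 to 380 in rescue. Genes of myeloid maturation summed to 512 to 547, 1755 to 1813 and 759 to 768, and 8 of 10 rose. Stress genes (5 of 8 risen) summed to 95.2 to 104, 153 to 162 and 110 to 113. These shifts accompany every difference given for knockout, and their part in the complex I values was not tested. The fibroblast markers had 0 of 5 rows in the table, the epithelial 2 of 5 with sums of 0.744 to 1.34, the erythroid 3 of 6 with 1.77 to 2.76, and the lymphoid 3 of 6 with 2.21 to 5.71, the highest in knockout.

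The 4 complex I messages that fell furthest in knockout were NDUFS3, NDUFB8, NDUFA6 and NDUFAF2. Their promoter windows are printed here because these genes fell furthest, so their shared direction follows from that choice and shared regulation was not tested. Each window holds 250 bases before and 50 bases from a RefSeq start (GRCh38.p14), 5′ to 3′ on the gene's strand. NDUFB8 had 2 listed starts, and the window with more matches to the letters marked below was printed. Capitals mark exact matches on either strand to the ETS family letters CCGGAAG and the YY1 letters AAGATGGCG, both known from promoters of mitochondrial genes.
NDUFS3 promoter, chr11:47578824-47579123, plus strand: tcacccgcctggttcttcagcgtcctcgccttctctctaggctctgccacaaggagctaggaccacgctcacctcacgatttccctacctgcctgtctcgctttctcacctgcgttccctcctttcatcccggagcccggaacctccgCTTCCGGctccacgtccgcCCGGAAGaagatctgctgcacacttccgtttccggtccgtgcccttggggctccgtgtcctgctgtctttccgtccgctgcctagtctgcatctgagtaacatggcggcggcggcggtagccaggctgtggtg
NDUFB8 promoter, chr10:100529822-100530121, minus strand: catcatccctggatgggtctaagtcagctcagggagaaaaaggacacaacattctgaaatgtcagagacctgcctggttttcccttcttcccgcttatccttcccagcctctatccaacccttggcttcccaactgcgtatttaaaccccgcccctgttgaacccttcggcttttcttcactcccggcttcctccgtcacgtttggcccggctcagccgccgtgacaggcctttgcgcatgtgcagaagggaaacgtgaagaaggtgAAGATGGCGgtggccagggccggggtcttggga
NDUFA6 promoter, chr22:42090723-42091022, minus strand: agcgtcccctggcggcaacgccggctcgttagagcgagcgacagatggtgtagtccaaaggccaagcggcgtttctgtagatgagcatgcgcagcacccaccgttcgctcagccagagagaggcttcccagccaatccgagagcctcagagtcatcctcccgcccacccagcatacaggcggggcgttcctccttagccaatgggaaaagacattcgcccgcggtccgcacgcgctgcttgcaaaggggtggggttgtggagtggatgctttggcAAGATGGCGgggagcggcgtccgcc
NDUFAF2 promoter, chr5:60944955-60945254, plus strand: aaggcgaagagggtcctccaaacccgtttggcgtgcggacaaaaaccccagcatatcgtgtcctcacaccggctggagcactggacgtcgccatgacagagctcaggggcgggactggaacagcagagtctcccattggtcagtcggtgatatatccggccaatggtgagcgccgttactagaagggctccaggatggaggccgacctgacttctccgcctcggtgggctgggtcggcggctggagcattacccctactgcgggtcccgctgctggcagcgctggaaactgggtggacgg
The NDUFS3 window held the ETS letters at positions 149 (reverse complement) and 168, counted from 1 at the 5′ end. In the NDUFB8 and NDUFA6 windows printed, the YY1 letters stood at positions 268 and 276, downstream of the start. The other NDUFB8 window and the NDUFAF2 window held neither motif. The YY1 letters were in 1.75% of 35116 windows of this length and in 6 of the 51 windows of 41 members, among them NDUFA6, NDUFA7 and NDUFB8, which fell, NDUFS4, which rose, and NDUFA9 and NDUFS7, which passed in neither direction. ETS letters occurred in 10.3% of all windows and 11.8% of member windows. A search for the NRF1 motif, by an exact form with 1 free base, matched 5.78% of all windows and 7 of the 51 member windows, 0 of them of members that fell. The Sp1 letters GGGCGG were in 45% of all windows and 66.7% of member windows, and CCAAT in 34.6% and 29.4%. All 4 genes had the Sp1 letters in a window, and neither the ETS nor the YY1 letters were in all 4.

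NDUFS3 was the member with the greatest fall. It encodes a core subunit of the peripheral arm that helps to hold the chain of iron-sulfur subunits together. The gene lies on chromosome 11 (GRCh38, 47565336 to 47584562, plus strand, ENSG00000213619). These are GENCODE limits, and the RefSeq start used for the promoter window printed above lies inside them, downstream of the GENCODE start. NDUFS3 was measured as follows. Its signal was 66.3 and 63.0 in control, 25.0 and 24.0 in knockout, and 61.7 and 58.8 in rescue. Knockout libraries were far below all the others, and the rescue libraries lay just under the control libraries. The group means were 64.6 ± 2.40 (SD, n = 2), 24.5 ± 0.735 (SD, n = 2) and 60.3 ± 2.04 (SD, n = 2). In log2(signal + 1), the change was -1.37 (SE 0.061) for knockout minus control, with a limma adjusted p of 3.15e-09. It was the 8th largest fall of 12734 genes tested. For rescue minus knockout the change was 1.27 (SE 0.061, limma adjusted p = 3.67e-08), and for rescue minus control -0.10 (adjusted p = 0.574, 95% interval -0.23 to 0.032). Both of the first comparisons use the same knockout libraries.

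None of the other 6 nuclear core subunits passed the test in knockout against control. NDUFS1, the large iron-sulfur subunit of the NADH-oxidising module, was at 36.7 and 34.7 in control, 36.3 and 35.0 in knockout and 37.2 and 38.4 in rescue. NDUFS7, an iron-sulfur subunit near the site where ubiquinone is reduced, was at 42.9 and 40.6, 47.1 and 43.6, and 39.6 and 39.1. It had a higher signal in each knockout library than in each control library, as did 43.4% of all genes tested, without passing the threshold. NDUFS8, an iron-sulfur subunit of the same arm, was at 34.4 and 34.3 in control, 41.0 and 34.8 in knockout and 34.3 and 35.7 in rescue, with knockout replicate 1 apart from the rest. The flavoprotein NDUFV1, which binds NADH, was at 60.0 and 56.0, 56.2 and 49.5, and 62.6 and 60.4. Its partner NDUFV2 was at 76.8 and 74.2, 68.3 and 68.3, and 77.8 and 79.5. For NDUFV2 both knockout libraries lay below both control libraries, as for 25.1% of all genes tested, while NDUFV1 overlapped.

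Among the 7 core subunits, 0 rose and 1, NDUFS3, fell in knockout against control (limma, adjusted p under 0.05), where 26.2% of all genes tested rose and 13.5% fell. Changes of the 5 others described here ran from -0.14 for NDUFV2 (adjusted p = 0.052) to 0.13 for NDUFS8 (adjusted p = 0.167). Their unadjusted 95% intervals together spanned -0.28 to 0.30, against -1.50 to -1.23 for NDUFS3. With quantile normalization or median-of-ratios scaling NDUFV1 and NDUFV2 also counted as fallen, which makes 3 of 7, while 25% and 27% of all genes fell under those scalings. Single libraries bore on some of these results: NDUFV2 counted as fallen without control replicate 2 (-0.17) and NDUFS8 as risen without knockout replicate 2 (0.25). The signal of NDUFS3 was 1.29 and 1.30 times the median of the other 6 in control, 0.484 and 0.515 times in knockout and 1.21 and 1.18 times in rescue. By level it ranked 3rd of the 7 in both control libraries, 7th in both knockout libraries and 4th in both rescue libraries.

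**Figure D1:**
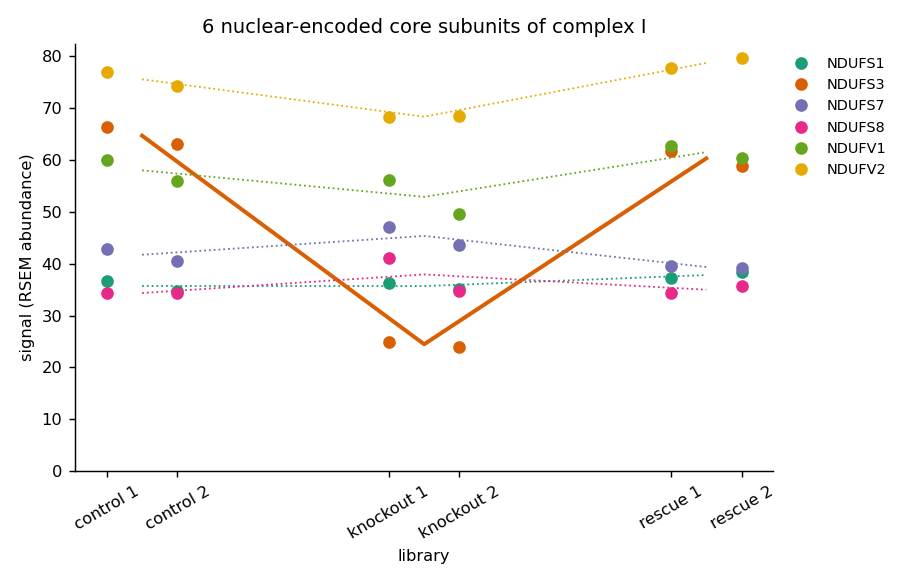
Signal (RSEM abundance, vertical axis from 0) of 6 nuclear core subunits in each library (points), with lines joining the group means. NDUFS3 (solid line) drops from 66.3 and 63.0 in control to 25.0 and 24.0 in knockout, below the other 5, and stands at 61.7 and 58.8 in rescue.

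Accessory subunits moved in both directions. Of 30 tested, 10 rose (33.3%) and 3 fell (10%) in knockout against control, beside 26.2% risen and 13.5% fallen over all genes. A log2 change above 0 was found for 24 and below 0 for 6, where 7693 of 12734 genes lay above 0 and 5041 below. The median change was 0.11 beside 0.067 over all genes. The 9 of the peripheral arm gave 3 risen and 2 fallen, the 20 of the membrane arm 7 risen and 1 fallen, and NDUFAB1, the acyl carrier protein found in both arms, was not called. Median-of-ratios scaling gave 7 risen and 5 fallen of the 30 (23% and 27% of all genes), and quantile normalization 10 and 5 (24.7% and 25%). Without knockout replicate 1 there were 6 risen and 3 fallen, beside 16.5% and 10.3% of all genes. Leaving out control replicate 1 gave 14 risen and 3 fallen (32.5% and 9.61%), and leaving out control replicate 2 gave 7 and 4 (18.7% and 17.7%).

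NDUFB8, a membrane-arm subunit often used as a protein marker of assembled complex I, was at 81.7 and 77.9 in control, 42.7 and 40.1 in knockout and 80.7 and 76.6 in rescue. Its knockout libraries stood well below the rest, and its rescue values overlapped those of control. On the log2 scale it changed by -0.93 (SE 0.060, limma adjusted p = 1.05e-07) in knockout against control and by 0.91 in rescue against knockout (adjusted p = 2.39e-07). NDUFB8 lies on chromosome 10 (100523740 to 100530000, minus strand) and shares 675 exonic bases on the same strand with AL133352.1, which has no row in the table, so reads may be divided between them.

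NDUFA6, an LYR-motif subunit of the peripheral arm that binds NDUFAB1, was at 48.7 and 48.3 in control, 29.0 and 28.5 in knockout and 48.4 and 49.1 in rescue. Rescue and control values again overlapped, with the knockout values well below. The change was -0.73 (SE 0.059, limma adjusted p = 7.68e-07) and then 0.74 (adjusted p = 1.23e-06). The gene is on chromosome 22 (42085525 to 42090955, minus strand).

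NDUFA7, another peripheral-arm subunit, showed a smaller fall. It was at 24.9 and 21.9 in control, 19.8 and 19.2 in knockout and 26.2 and 26.8 in rescue, so its rescue libraries exceeded both controls. The log2 change was -0.25 (SE 0.074, adjusted p = 0.0154) and 0.42 (adjusted p = 0.000796), and without knockout replicate 2 the first had an adjusted p of 0.0899. NDUFA7 shares 456 exonic bases on the same strand with AC010323.1, which has no row in the table.

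Among the accessory subunits that rose, log2 changes ran from 0.21 for NDUFS4 to 0.49 for NDUFB9. NDUFB9, an LYR-motif subunit of the membrane arm, was at 255 and 258 in control, 368 and 353 in knockout and 298 and 296 in rescue. It had a higher signal in rescue than in control, by 0.21 log2, which did not pass (adjusted p = 0.108). Knockout minus control was 0.49 (SE 0.050, adjusted p = 6.98e-06) and rescue minus knockout -0.28 (adjusted p = 0.000963). NDUFB9 overlaps exons of TATDN1 and MTSS1 on the other strand, and whether the counting used strand is not given in the sources used here; TATDN1 itself fell, from 21.4 and 20.7 to 12.4 and 13.8, while MTSS1 rose (0.45, adjusted p = 0.00294).

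NDUFC1, a small subunit of the membrane arm, was at 24.3 and 27.8 in control, 37.1 and 35.7 in knockout and 28.4 and 31.2 in rescue. Its change was 0.47 (SE 0.076, adjusted p = 0.000268), then -0.28 (adjusted p = 0.012). Both rescue libraries lay above both control libraries and below both knockout libraries. The second change was lost without knockout replicate 1 or rescue replicate 1, and with either rescaling.

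Of the remaining membrane-arm subunits that rose, NDUFA3 was at 90.9 and 81.3 in control, 112 and 105 in knockout and 98.4 and 89.3 in rescue (0.33, adjusted p = 0.00169). NDUFA1, which is needed for the membrane arm to form, was at 144 and 141, 177 and 166, and 150 and 159 (0.27, adjusted p = 0.00179). NDUFA13, also known as GRIM-19, was at 182 and 174, 224 and 203, and 196 and 187 (0.26, adjusted p = 0.00298). All 3 were higher in both knockout libraries than in both control libraries, as were 43.4% of all genes tested. NDUFB11 was at 64.2 and 56.2, 74.7 and 66.4, and 64.2 and 62.0 (0.23, adjusted p = 0.0248), with the lower knockout library only just above the higher control library. NDUFC2, the partner of NDUFC1, was at 6.76 and 5.67, 7.37 and 8.58, and 6.37 and 6.74 (0.32, adjusted p = 0.0253). NDUFC2 and the readthrough NDUFC2-KCTD14 (8.61 and 8.53, 11.5 and 9.87, 9.21 and 10.0; 0.29, adjusted p = 0.0221) share 431 exonic bases, and the division of reads between them is uncertain. Several of these calls were lost when 1 library was left out, which also leaves less to test with. NDUFA13 was lost without knockout replicate 1 (0.19), and NDUFB11 without knockout replicate 1 or control replicate 2 (0.14 and 0.13). NDUFC2 was lost without knockout replicate 2 or control replicate 2 (0.22 and 0.21), and NDUFC2-KCTD14 without knockout replicate 1 or either control library (0.18 to 0.29). With median-of-ratios scaling NDUFB11, NDUFC2 and NDUFC2-KCTD14 were not called, nor was NDUFC2-KCTD14 with quantile normalization or NDUFB11 without the trend.

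In the peripheral arm, NDUFA2 was at 23.7 and 23.4 in control, 32.2 and 27.2 in knockout and 25.2 and 25.1 in rescue (0.32, adjusted p = 0.0051). NDUFV3, a subunit beside the NADH site, was at 13.5 and 12.0, 15.4 and 16.0, and 14.7 and 15.1 (0.28, adjusted p = 0.0112). NDUFS4, a subunit whose loss causes Leigh syndrome, was at 34.9 and 31.3, 38.1 and 38.5, and 36.1 and 34.3 (0.21, adjusted p = 0.0265). These 3 had knockout libraries above both controls, as did 43.4% of all genes tested. Without knockout replicate 1, NDUFA2 reached only an adjusted p of 0.144. NDUFV3 was lost without knockout replicate 2, and NDUFS4 without either knockout library, without control replicate 2, with median-of-ratios scaling or without the trend.

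**Figure D2:**
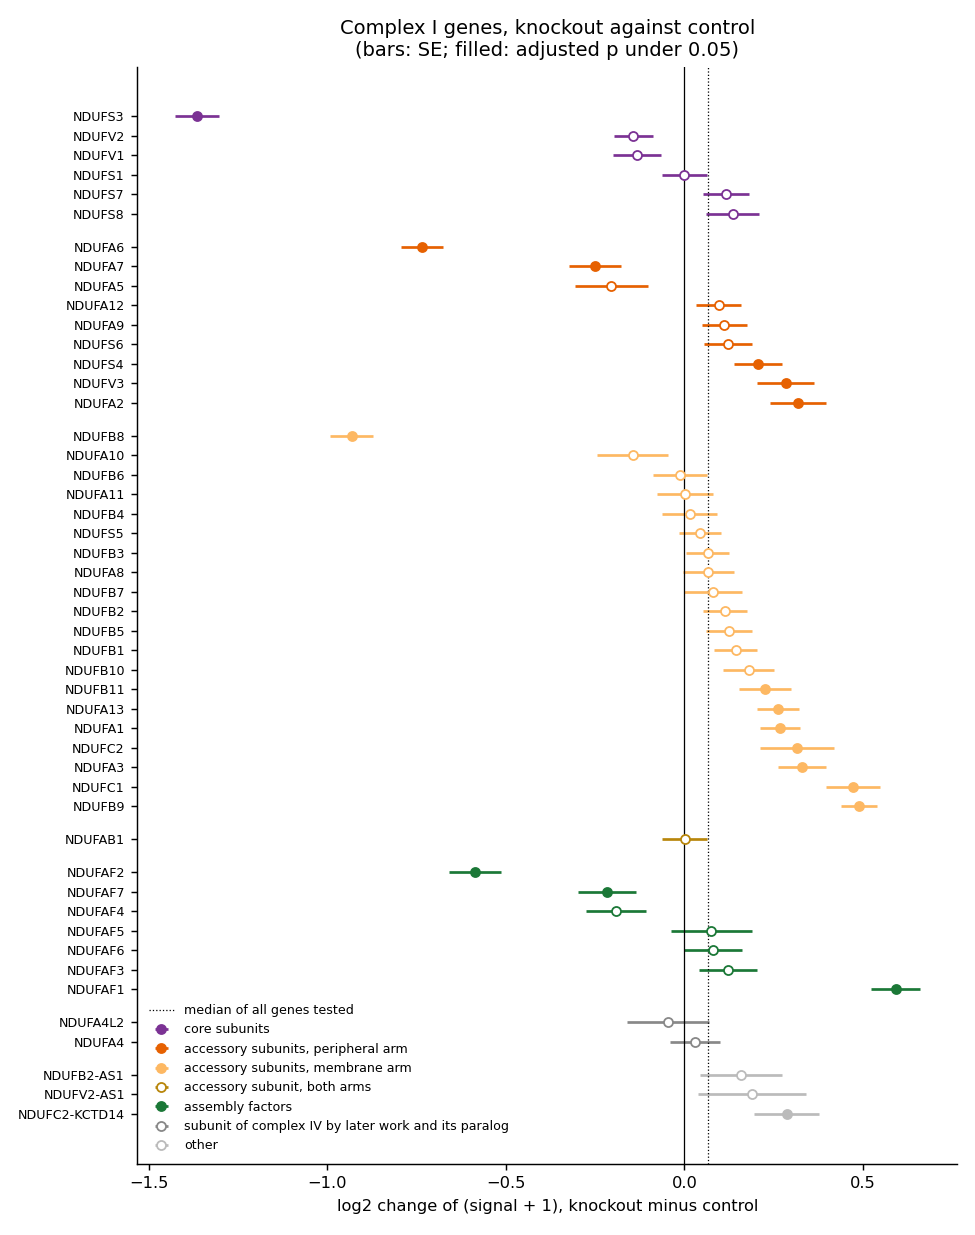
Change in log2(signal + 1), knockout minus control (horizontal axis), for 48 of the 49 members tested, grouped by class; bars are the SE and filled points have an adjusted p under 0.05. NDUFS3, NDUFB8, NDUFA6 and NDUFAF2 stand apart to the left at -1.37 to -0.59. Of the 49 tested, 35 lie above 0, as do 7693 of all 12734 genes tested.

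The 7 assembly factors gave 1 risen and 2 fallen, where 26.2% and 13.5% of all genes did. With either rescaling 3 of them fell, beside 25% or 27% of all genes. Over the 14 other fits the change of NDUFAF2 ran from -0.68 to -0.52, that of NDUFAF7 from -0.30 to -0.15 and that of NDUFAF1 from 0.50 to 0.62. NDUFAF2, a chaperone of a late assembly step and a paralog of NDUFA12, was at 27.1 and 24.5 in control, 17.5 and 16.2 in knockout and 24.5 and 24.5 in rescue. It changed by -0.59 (SE 0.074, limma adjusted p = 3.88e-05) and by 0.52 (adjusted p = 0.000184) in rescue against knockout. The gene is on chromosome 5 (60945129 to 61153037, plus strand). Its paralog NDUFA12, which replaces it in the finished enzyme, was not called (0.096, adjusted p = 0.25).

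NDUFAF1, a member of the complex that assembles the membrane arm, moved the other way. Its signal was 15.0 and 15.0 in control, 22.9 and 23.5 in knockout and 17.5 and 17.8 in rescue, a change of 0.59 (SE 0.069, adjusted p = 2.02e-05) and then of -0.37 (adjusted p = 0.00113). Rescue libraries were above control libraries without passing the test (0.22, adjusted p = 0.243). NDUFAF7, a methyltransferase that modifies a core subunit, was at 14.1 and 12.8, 11.2 and 11.6, and 13.6 and 14.6 (-0.22, adjusted p = 0.0461; 0.28, adjusted p = 0.016). Its fall in knockout was lost in 8 of 14 other fits, among them those without either knockout library, either rescue library or control replicate 1. Its rise in rescue was lost without knockout replicate 1 or rescue replicate 2.

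NDUFAF4, which works with NDUFAF3 early in assembly, was at 8.83 and 9.01 in control, 7.82 and 7.57 in knockout and 8.89 and 9.66 in rescue. It did not pass in knockout against control (-0.19, adjusted p = 0.0869) and rose in rescue against knockout (0.24, adjusted p = 0.0429), a call that was lost when any 1 of the 4 libraries compared was left out. NDUFAF3, NDUFAF5 and NDUFAF6 had changes of 0.12, 0.076 and 0.081 in knockout against control, none of them called. The eighth factor of this series of names, NDUFAF8, stands in the table under its older symbol C17orf89 and was outside the rule; looked up afterwards, it was at 15.5 and 14.3, 15.6 and 10.9, and 17.3 and 14.2 (-0.18, adjusted p = 0.275).

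**Figure D3:**
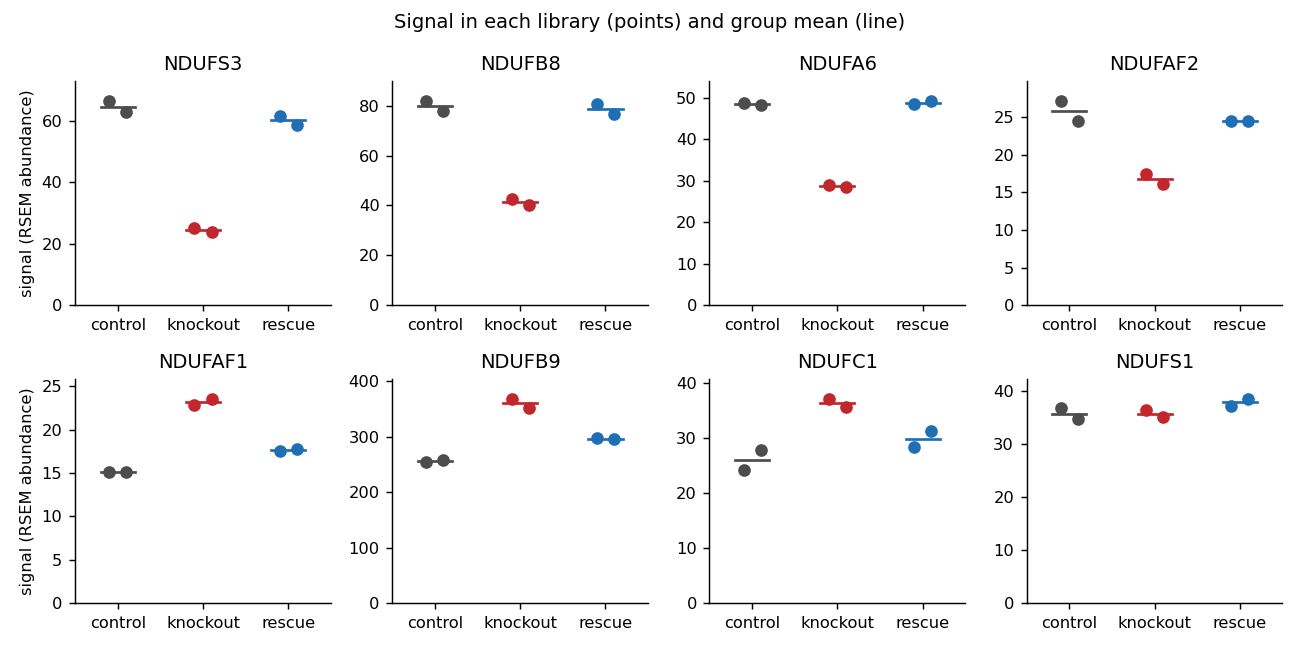
Signal (RSEM abundance, vertical axes from 0, each on its own scale) in each library (points) with the group mean (line) for the 4 members with the greatest fall, 3 of the members with the greatest rise, and NDUFS1 as a core subunit that was not called. In the upper row both knockout libraries lie below all others; in the lower row those of NDUFAF1, NDUFB9 and NDUFC1 lie above, with rescue between knockout and control.

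Across all 49 members tested, 12 rose and 6 fell in knockout against control, 18 in all or 36.7%, where 39.7% of all genes were called. The share called among complex I genes was thus near that of the table as a whole, and the median change was 0.096 against 0.067. Both knockout libraries lay above both control libraries for 23 members and below them for 9, where 43.4% and 25.1% of all genes did so. The summed signal of the 37 subunits was 0.331% and 0.340% of the table in control, 0.370% and 0.379% in knockout and 0.340% and 0.337% in rescue. The most abundant subunits weigh most in this sum, which was 2211 and 2106 in control and 2401 and 2266 in knockout. NDUFB9, the most abundant, went from a mean of 257 to 360, while NDUFS3 went from 64.6 to 24.5. The sum therefore does not describe each subunit. NDUFA4, which later work placed with complex IV, and its paralog NDUFA4L2 were not called (0.030 and -0.046).

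In rescue against knockout, 9 of the 49 rose and 6 fell, 30.6% in all, where 15.6% and 15.9% of all genes did and 31.4% were called. By class, 3 core subunits rose (NDUFS3, NDUFV1 at 0.22 and NDUFV2 at 0.20) and 1 fell (NDUFS7 at -0.20, adjusted p = 0.0285). Accessory subunits gave 3 risen (NDUFB8, NDUFA6 and NDUFA7) and 4 fallen (NDUFB9, NDUFC1, NDUFA2 and NDUFA3), and assembly factors 3 risen (NDUFAF2, NDUFAF7 and NDUFAF4) and 1 fallen (NDUFAF1). Beside NDUFAF4, the calls of NDUFV2 and NDUFS7 in this comparison were lost in 4 and 3 of the fits without 1 library, that of NDUFV1 in 3 and that of NDUFA3 in 2. NDUFA2 was lost in 5 of those fits, without the filter, with median-of-ratios scaling and with only the 2 groups compared. Without the trend NDUFV1, NDUFV2, NDUFS7, NDUFA2 and NDUFA3 were not called. Because this comparison and the previous one share the knockout libraries, a chance deviation of those libraries moves both in opposite directions.

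Rescue against control called 0 of the 49 members by limma, where 0.228% of all genes rose and 0.055% fell. Before adjustment, 6 members had p under 0.05, all higher in rescue, beside 11.5% of all genes. In 5 of 14 other fits 1 member was called, NDUFB9, which was higher in rescue. The smallest difference among the 4 genes of the upper row in the plot of library values was 0.0082 for NDUFA6 (95% interval -0.12 to 0.13), and the intervals for NDUFB8 and NDUFAF2 were -0.15 to 0.11 and -0.23 to 0.090. Differences within those intervals are not resolved by 2 libraries a group.

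Assembly factors of complex I whose names do not begin with NDUFAF were tested as a list of 15 genes. In knockout, 6 fell and 1 rose, where 13.5% and 26.2% of all genes did, and the median change was -0.19. Those fallen included TMEM261 (3.70 and 3.32 in control, 1.92 and 1.84 in knockout, 3.36 and 3.30 in rescue; -0.65, adjusted p = 0.000226), now called DMAC1. TIMMDC1, which belongs to the membrane-arm assembly complex together with NDUFAF1, went from 39.6 and 37.5 to 24.4 and 25.0 and stood at 36.8 and 36.5 in rescue (-0.62, adjusted p = 6.66e-06). TMEM126B, of the same complex, went from 28.9 and 27.0 to 17.9 and 20.4 and stood at 25.6 and 25.9 (-0.53, adjusted p = 0.000104). Of the same assembly complex, NDUFAF1 and ACAD9 (0.22, adjusted p = 0.0235) rose; with median-of-ratios scaling ACAD9 was not called, and 10 of the 15 fell, beside 27% of all genes. In rescue against knockout 9 of the 15 rose and 0 fell, where 15.6% and 15.9% of all genes did.

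Other respiratory complexes had members called in both directions, except complex V; over all genes 26.2% rose and 13.5% fell. In complex III, which accepts electrons from ubiquinol, 6 of 15 fell and 3 rose. UQCRC1, a core subunit of that complex, showed its greatest fall, from 113 and 101 to 59.6 and 54.8, and stood at 103 and 99.4 in rescue (-0.89, adjusted p = 3.27e-07). TTC19 changed by -0.50, LYRM7 by -0.43 and UQCR10 by 0.48. In complex II 2 of 8 rose and 2 fell, with SDHAF2 at 0.34 and SDHAF3 at -0.38, both assembly factors. In complex IV 4 of 23 rose and 4 fell, with COX16 at 0.39 and COX7C at -0.35, and in complex V 3 of 17 rose and 0 fell. With quantile normalization or median-of-ratios scaling 1 gene of complex V fell, beside 25% and 27% of all genes. Without the trend 0 of complex V rose, where 24.9% of all genes did. Leaving out single libraries also changed the calls of complex V. Genes of iron-sulfur cluster assembly, which supply the core subunits with cofactors, gave 2 risen and 3 fallen of 16, with BOLA3 at -0.52 and FDXR at 0.31. Of 19 genes of mitochondrial transcription and biogenesis, 0 rose and 5 fell, among them LRPPRC (-0.39), which stabilises mitochondrial messenger RNA, and TFAM (-0.36), which packages mitochondrial DNA.

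**Figure D4:**
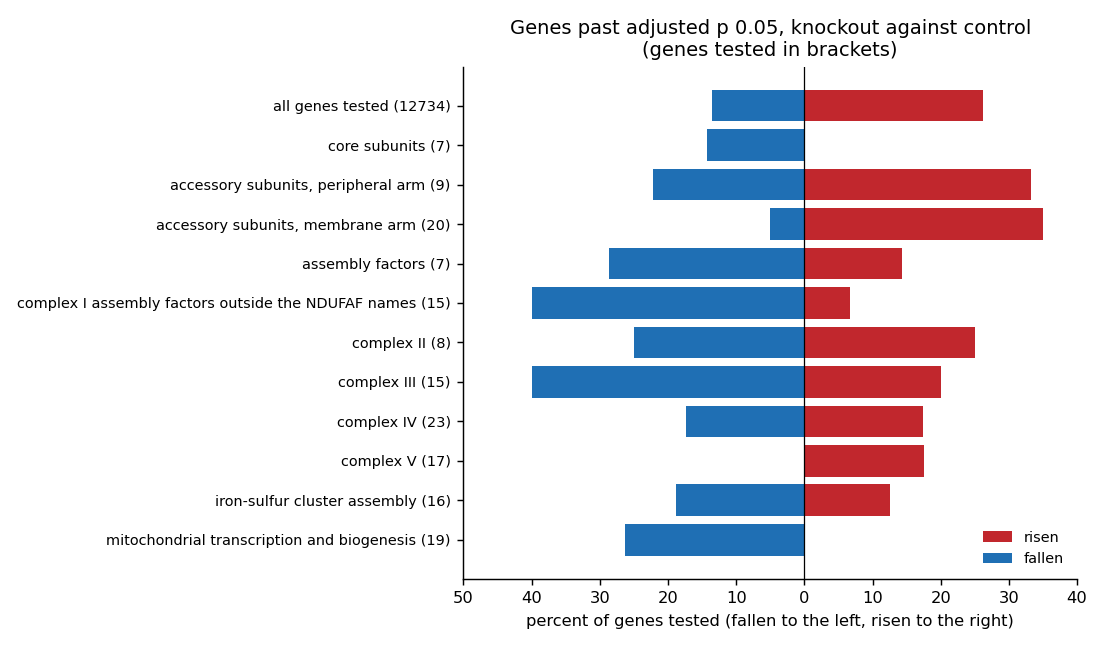
Percent of the genes tested in each class or list that fell (left, blue) or rose (right, red) in knockout against control at an adjusted p under 0.05, with the number tested in brackets. All genes stand at 13.5% fallen and 26.2% risen; core subunits show 1 fallen of 7 and 0 risen, and membrane-arm accessory subunits 7 risen and 1 fallen of 20.

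Genes near NDUFS3 on chromosome 11 were examined because exons overlap there. PTPMT1 shares 721 exonic bases with NDUFS3 on the same strand and was at 13.8 and 12.3 in control, 12.5 and 13.2 in knockout and 14.7 and 13.8 in rescue (-0.022, adjusted p = 0.853). CELF1, with 234 shared bases on the other strand, changed by -0.11 (adjusted p = 0.356). Of 10 neighbours tested, 4 rose (KBTBD4, SPI1, PSMC3 and SLC39A13, at 0.33 to 0.41) and 1 fell (NUP160, -0.43), beside 26.2% and 13.5% of all genes. None of these 10 changed by as much as NDUFS3. In all, 29 of the 50 members share exonic bases with another gene, 14 of them on the same strand.

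The letters TACAGAGAA, the core of the sequence that METTL16 is known to bind in MAT2A, were searched on the sense strand of the longest coding transcript of each gene (GENCODE 29). They were found in 465 of 12232 genes, or 3.8%, and in 1 of 47 members. Genes with a transcript of 797 to 2402 nt, the middle range of the members, held them in 1.35%. The member was NDUFAF5, a hydroxylase acting on NDUFS7, with a transcript of 5529 nt, which is outside that range. The level of NDUFAF5 was 3.70 and 2.85 in control, 3.39 and 3.58 in knockout and 3.13 and 3.41 in rescue, without a call. MAT2A held 5 matches and fell in knockout, from 140 and 132 to 77.6 and 78.1 (-0.80, adjusted p = 2e-07). The NDUFAF5 site and the 1st of MAT2A are printed to show the shared letters in capitals, with 10 bases on either side.
NDUFAF5 transcript position 975: tgcggcagtgTACAGAGAAatgtacagaa
MAT2A transcript position 1351: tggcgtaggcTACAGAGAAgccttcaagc
None of the 6 members that fell held these letters in the transcript searched, which says nothing of other sites or of introns.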

How the data were processed

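Total RNA from 6 NOMO-1 libraries was depleted of ribosomal RNA and sequenced from a stranded kit, per the labels' protocols. Per the submitters' processing notes, STAR, RSEM and GRCh38 were used, with no version given. The authors deposited 1 table with a signal per gene and library, an RSEM abundance whose kind (TPM or FPKM) is not given in the sources used here; read counts were not used here, and depth was estimated from the spacing of low signals.

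A gene was tested when 2 or more libraries had a signal of 1 or higher, which left 12734 of 15059. limma 3.58.1 (R 4.3.3) was fitted with a trend to log2(signal + 1), using the 6 libraries together (residual degrees of freedom 3, prior 11.0) and Benjamini-Hochberg adjustment over all genes tested, threshold 0.05, two-sided. Every adjusted p in the text comes from that fit or a named alternative to it. "Rose" and "fell" refer to that threshold. A log2 change understates the change of low genes, since 1 is added. The code was tested on simulated data. Python 3.11.15 with pandas 2.3.3, numpy 2.4.6 and matplotlib 3.10.9 did the rest. GENCODE 29 gave locations and transcripts, and RefSeq (GRCh38.p14) the promoter windows.

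The values of 1 core subunit are not reported here. The members, classes, lists and tests were chosen with earlier results of these data known. Named in full were NDUFS3, the other core subunits (with that exception), and accessory subunits and assembly factors past 0.05 in knockout minus control or rescue minus knockout (up to 8 per class and direction); from each list up to 3 genes per direction with the largest change, and NDUFS3's neighbours. NDUFAF8, TATDN1, MTSS1 and MAT2A were looked up after values were seen. Alternatives were another pseudocount, other filters, 2 rescalings, no trend, fits of 2 groups, a replicate block, and leaving out each library, 14 in all.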

Additional observations from a re-analysis of the deposited data

How the results depend on the processing

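In all 14 other fits, NDUFS3, NDUFB8, NDUFA6, NDUFAF2, NDUFA1, NDUFA3, NDUFC1, NDUFB9 and NDUFAF1 kept their direction and stayed past 0.05 in knockout against control, with NDUFS3 between -1.46 and -1.33. Over all genes, the 3333 risen and 1723 fallen became 3146 and 3187 with quantile normalization and 2920 and 3435 with median-of-ratios scaling, as the median of all genes went from 0.067 to -0.0037 and -0.014. Complex I members fallen in knockout against control went from 6 to 11 with either rescaling. In rescue against knockout the members fallen went from 6 to 10 with a mean of at least 5 or with quantile normalization, and to 3 without the trend. Over all genes 15.9% fell in the main fit, 18.5% with a mean of at least 5, 22.3% with quantile normalization and 14.5% without the trend. In rescue against control the members risen went from 0 to 1, NDUFB9, with a mean of at least 5 or with only the 2 groups compared. In those fits 2.2% and 1.7% of all genes rose. Leaving out 1 library at a time gave 7 to 17 risen (7 without knockout replicate 1) and 4 to 8 fallen in knockout against control, 5 to 9 risen (5 without rescue replicate 2) and 2 to 8 fallen in rescue against knockout (2 without knockout replicate 1, 3 without either rescue library), and 0 to 1 risen in rescue against control (1 without either knockout library). Over all genes the shares called also moved with the library left out, in each comparison. Some of these shares, for knockout against control, are given above beside the accessory subunits. The median change of all genes in that comparison was 0.13 without control replicate 1 and 0.0070 without control replicate 2, beside 0.067 in the main fit. Member counts alone therefore do not show that complex I was less stable than other genes. The cause of the shifts in members and in all genes was not tested, except that fewer libraries leave less to test with.

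Small differences changed sign. NDUFS1 in knockout against control, -0.00063, was 0.039 without control replicate 1 and 0.025 without knockout replicate 2 (-0.041 to 0.039 over the libraries left out). NDUFS8 in rescue against knockout was 0.0058 without knockout replicate 1 (-0.22 to 0.0058). In rescue against control, NDUFB8 was 0.013 without control replicate 1 and 0.017 without rescue replicate 2, NDUFAF2 was 0.0027 without control replicate 1 (-0.14 to 0.0027), and NDUFA6 was -0.071 with quantile normalization, -0.058 with median-of-ratios scaling and -0.0016 without rescue replicate 2 (up to 0.018). None of these passed the threshold.

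Nothing in the labels says that same-numbered libraries were paired. Deviations of same-numbered libraries correlated at -0.011 (control and knockout), -0.048 (control and rescue) and 0.10 (knockout and rescue) over 12734 genes. With 2 libraries a group, these values cannot decide whether they were paired. A fit with the replicate block gave 14 risen and 6 fallen members for the knockout-control comparison (3600 and 1875 over all genes), 9 and 9 in rescue against knockout (2214 and 2263), and 1 and 0 in rescue against control (299 and 83). NDUFS3 changed by -1.37 in knockout against control with the block too, with an SE of 0.068. With 2 libraries per group and no read totals, small changes are not resolved.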
